A study of Caenorhabditis elegans with 51 samples.

Results

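Long intergenic noncoding RNA (lincRNA) genes of Caenorhabditis elegans were followed through experiments that impair XRN2, a nuclear 5'-to-3' exoribonuclease. The genes were taken by their WormBase symbol, linc- followed by digits. Of 170 such symbols, 7 (4.12%) belong to a gene ID present among the 44200 genes of the count tables, and these 7 are all described here. LincRNAs are transcribed from the space between protein-coding genes, by the same RNA polymerase II, and many are capped and polyadenylated like mRNAs without encoding a protein. XRN2 is known for degrading the RNA that is still attached to the polymerase after a transcript has been cleaved at its 3' end, an event linked to transcription termination. No function is given for any of the 7 genes in the sources used here.

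The 7 genes are linc-1 (WBGene00194659), linc-14 (WBGene00195060), linc-29 (WBGene00189951), linc-34 (WBGene00194814), linc-61 (WBGene00195170), linc-83 (WBGene00194800) and linc-121 (WBGene00194923), each classed as lncRNA in RefSeq (WBcel235). The neighbours named here are the nearest protein-coding genes on either side in the RefSeq gene order, with noncoding genes passed over. By that order linc-1 lies on chromosome I between dkf-1, a protein kinase D, and rpl-31, a ribosomal protein gene. On chromosome V, linc-14 lies between C18D4.6 and srz-25, and linc-61 between his-1, a histone H4 gene, and T10C6.15. On chromosome X, linc-34 lies between F02C12.2 and F02C12.1, and linc-83 between C39B10.1 and elt-4, a GATA-type transcription factor. On chromosome IV, linc-29 and linc-121 lie among genes known only by sequence names, apart from nssp-40 beside linc-29. Only linc-121 overlapped other genes there, 2 in number and neither protein-coding.

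Whole L4 animals were profiled in 35 RNA libraries. In the time course, N2 wild type (WT) and strain HW1660, which carries the xrn-2(xe31) allele, grew for 59 h at 15 °C and were then sampled hourly from 0 to 10 h after a shift to 26 °C, which gave 11 libraries per strain and a single one at each hour. The 6 h and 10 h RNA of both strains was sequenced again at greater depth, which adds reads and no animals. HW2216, which carries a catalytic-dead xrn-2(D234/236A)::gfp copy in addition to xe31, was sampled at 6 h and 10 h next to WT libraries of its own. In the RNAi experiments N2 animals received xrn-2 RNAi or an empty vector from L1 to mid-L4 at 20 °C. These gave 1 mock and 1 xrn-2 RNAi library made with a polyA-selecting kit, and 1 mock and 2 xrn-2 RNAi libraries made from total RNA depleted of rRNA with another kit. The other 32 libraries were all polyA-selected. Nothing in the labels says that libraries of a group came from separate cultures, so p-values measure the spread between libraries or hours only. In whole animals, fewer cells that express a gene and less RNA per cell cannot be told apart.

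Depth was 41238235 to 57832479 gene counts in the time course, 239213652 to 253142688 in the resequenced libraries, 49628394 to 74356542 in the catalytic-dead experiment, and 21695913 to 44605077 in the RNAi libraries. The transcript of xrn-2 stood at 79.5 CPM (the counts-per-million scale, relative to a library's gene counts) in the polyA xrn-2 RNAi library against 132.2 CPM in its mock. In the libraries labelled rRNA-depleted xrn-2 RNAi it stood at 80.2 and 68.8 CPM against 69.3 CPM in mock, so the knockdown does not show in them and directions drawn from them rest on their labels. In late xe31 the xrn-2 transcript was higher than in WT (log2 change 0.99 ± 0.07, edgeR, BH-adjusted p = 1.53e-06). In the strain with the extra catalytic-dead copy it stood at 536.7 and 500.3 CPM against 103.4 and 106.0 CPM in its WT, above the 209.3 and 233.8 CPM of resequenced xe31. Stage markers differed between groups. The summed CPM of 8 cuticle and molt genes, all detected, was 28.8 to 70.1 in the WT of the catalytic-dead experiment and 1130 to 2245 in the mutant, 62.4 in the polyA mock and 5159 in its RNAi library, and 77.1 in the rRNA-depleted mock and 1351 to 4340 in its RNAi libraries. That of 5 intestinal genes, all detected, ran the other way, at 14260 to 28630 and 801 to 1012 in the catalytic-dead experiment, and at 29250 and 771 in the polyA pair. In the resequenced libraries the ranges of these sums overlapped between the strains. Cuticle and molt genes had 39.4 to 284.8 in WT and 87.6 to 400.5 in xe31. Intestinal genes had 7294 to 30440 in WT and 6393 to 38030 in xe31. The sum of 8 oocyte genes was 741.7 to 4010 in WT and 686.5 to 2050 in xe31. The part of developmental stage in the results of any comparison here, xe31 against WT included, was not tested.

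All 6 linc genes with any count were rare transcripts. No read was counted for linc-121 in any of the 35 libraries, out of 2427873121 gene counts, which allows at most 0.00124 CPM over all libraries (3 counts), for counting error only. Over the 11 WT hours, linc-1 ranged from 0.806 to 1.99 CPM with a median of 1.38, linc-61 from 0.705 to 1.58 with a median of 1.04, and linc-29 from 0.226 to 1.72 with a median of 1.06. Lower still on this scale were linc-14, at 0.294 to 1.11 CPM, linc-34, at 0.437 to 0.814 CPM, and linc-83, at 0.0960 to 0.666 CPM. CPM is not corrected for transcript length, so these values do not rank the genes against each other.

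The first comparison set the late window (6 to 10 h after the shift) against the early window (0 to 2 h) in WT animals. Developmental stage and time at 26 °C advance together over these hours and cannot be told apart. By the late window linc-29 and linc-14 had risen and linc-1 and linc-61 had fallen, 4 of the 6 genes tested. Such calls were common: 60.0% of 16877 genes tested passed an adjusted p of 0.05 in this comparison, and 54.5% of the 879 genes within the interquartile range of the linc genes' levels. The median log2 change was -0.46 for the 6 linc genes and -0.03 for all genes. All tests used edgeR's quasi-likelihood test with Benjamini-Hochberg (BH) adjustment over all genes tested, with hours within a window standing in for replicates.

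The widest rise was that of linc-29. In WT it stood at 0.553, 0.511 and 0.226 CPM at 0, 1 and 2 h, and at 1.06, 1.57, 1.70, 1.72 and 1.65 CPM from 6 to 10 h. Every late hour was above every early hour, and the middle hours lay between 0.543 and 1.12 CPM. The log2 change was 1.59 ± 0.29 SE (3.02-fold, edgeR, BH-adjusted p = 0.000151). The same gene in xe31 went from 0.596, 0.423 and 0.440 CPM to 1.66, 1.45, 2.03, 1.74 and 2.06 CPM, again without overlap. There the log2 change was 1.60 ± 0.29 (edgeR, BH-adjusted p = 0.000149).

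For linc-14 the early WT libraries had 0.298, 0.355 and 0.294 CPM and the late ones 0.797, 0.830, 0.741, 1.08 and 1.11 CPM. The early values were nearly level, all late ones were higher, and the 3 h library already stood at 0.950 CPM. The change was 1.28 ± 0.29 on the log2 scale (edgeR, BH-adjusted p = 0.000987). In xe31 the early libraries had 0.298, 0.254 and 0.506 CPM and the late ones 0.480, 0.694, 0.876, 0.933 and 0.840 CPM, so the 6 h library fell below the 2 h library. The xe31 rise was 0.85 ± 0.28 on the log2 scale (edgeR, BH-adjusted p = 0.0158), and it did not pass without 0 h (adjusted p = 0.0717) or without 1 h (adjusted p = 0.0947).

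The fall of linc-1 began from a peak at 2 h in both strains. Its WT libraries had 1.26, 1.80 and 1.99 CPM early and 1.38, 0.951, 1.29, 0.960 and 0.806 CPM late. The groups overlapped only because 0 h was low. The log2 change was -0.89 ± 0.26 (edgeR, BH-adjusted p = 0.00661). In xe31, values of 0.831, 1.44 and 2.27 CPM preceded late values of 0.868, 0.925, 0.803, 0.784 and 1.08 CPM, a log2 change of -1.02 ± 0.26 (edgeR, BH-adjusted p = 0.00249). The 0 h library was again the low one among the early hours.

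The early WT libraries of linc-61 had 1.17, 1.31 and 1.31 CPM, and the late ones 1.04, 0.761, 0.858, 0.705 and 0.921 CPM. No late hour reached the early level, although 5 h was the highest of the course at 1.58 CPM. The log2 change was -0.80 ± 0.23 (edgeR, BH-adjusted p = 0.00559). In xe31 it was -0.44 ± 0.23 (edgeR, BH-adjusted p = 0.115) and did not pass, with a 95% interval from -0.93 to 0.06. Without 2 h, the lowest of its early hours, it was -0.65 with an adjusted p of 0.0380.

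The other genes were not called in either strain. For linc-83 the highest library of both courses was 4 h, at 0.666 CPM in WT and 0.597 CPM in xe31, and by 10 h it stood at 0.0960 and 0.180 CPM. Its late minus early log2 change was -0.62 ± 0.48 in WT (edgeR, BH-adjusted p = 0.272) and -0.58 ± 0.48 in xe31 (edgeR, BH-adjusted p = 0.307), and the peak lay in the middle hours that this contrast leaves out. Without 6 h, where WT still had 0.478 CPM, the WT change was -1.18 with an adjusted p of 0.0180, and a linear slope over all 11 hours gave -1.26 per 7 h with an adjusted p of 0.0409. For linc-34 the WT change was -0.30 ± 0.27 (edgeR, BH-adjusted p = 0.349) and the xe31 change -0.34 ± 0.27 (edgeR, BH-adjusted p = 0.283). Among the xe31 libraries, 2 linc genes rose and 1 fell, where 60.4% of all genes tested and 55.5% of 879 genes of like level were called.

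**Figure D1:**
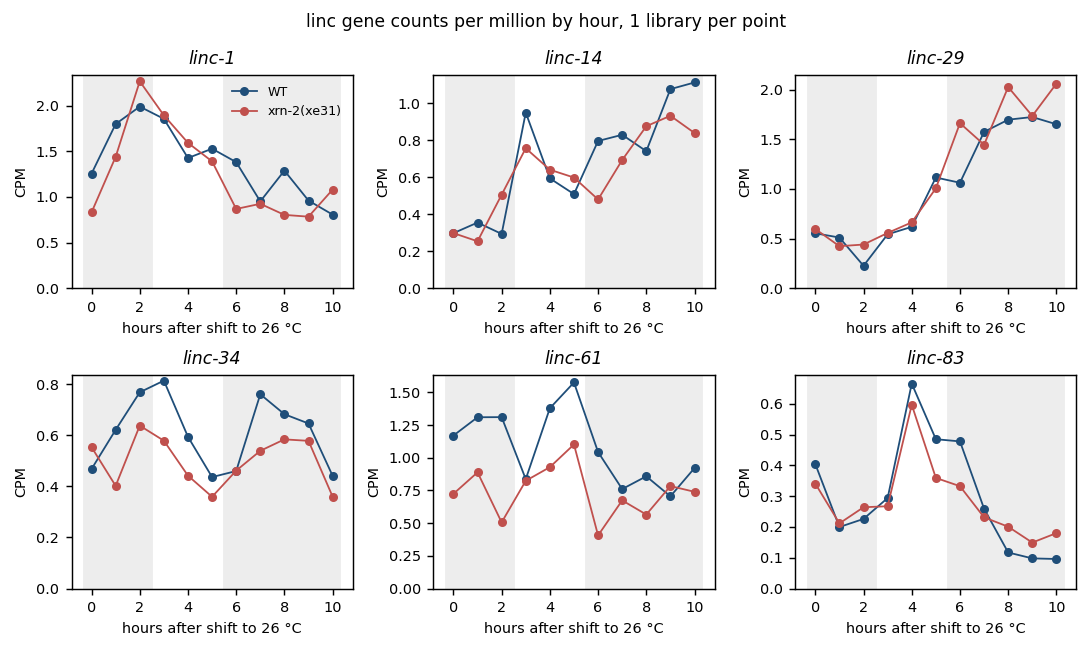
CPM of 6 linc genes (vertical axes, each on its own scale) against hours after the shift to 26 °C, in WT (blue) and xrn-2(xe31) (red), with 1 library per point and the early and late windows shaded. In both strains linc-29 and linc-14 climb toward the late hours, linc-1 declines from 2 h, and linc-83 is highest at 4 h.

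The next question was whether xe31 differed from WT at matched hours, with hour as a block. In the late window no linc gene was called up or down. Their median log2 change was -0.35, against -0.03 over all genes. Of 17123 genes tested, 38.1% were called, 2967 higher and 3563 lower, as were 28.9% of 907 genes of like level. With 0 of 6 linc genes called, so few genes do not show a share below that of like level. By edgeR 3 of 6 had an unadjusted p under 0.05, and DESeq2 called 0.

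The lowest adjusted p-value belonged to linc-61. Its late xe31 libraries had 0.406, 0.674, 0.566, 0.784 and 0.740 CPM from 6 to 10 h, next to the WT values given above. Xe31 was lower in 4 of 5 late hours, the exception being 9 h, and in 10 of 11 hours overall. The late log2 change was -0.54 ± 0.20 (0.686-fold, edgeR, BH-adjusted p = 0.0526). In the early window the xe31 libraries had 0.724, 0.889 and 0.506 CPM and lay wholly below the WT libraries. There the change was -0.91 ± 0.26 (0.531-fold, edgeR, BH-adjusted p = 0.0531). Both values lie at the threshold: the late one passed against WT 1 h later (adjusted p = 0.0393), without 2 h (0.0474) and without 9 h (0.0325), and the early one against WT 1 h later (0.0447), without 6 h (0.0215) and without 9 h (0.0467).

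Other linc genes leaned the same way in the late window without passing. The log2 change was -0.36 ± 0.16 for linc-1 (edgeR, BH-adjusted p = 0.103), -0.36 ± 0.17 for linc-14 (edgeR, BH-adjusted p = 0.112) and -0.34 ± 0.15 for linc-34 (edgeR, BH-adjusted p = 0.101), each lower in 4 of 5 hours. The value for linc-1 passed without 10 h (-0.51, adjusted p = 0.0287) and against WT 1 h earlier (-0.53, adjusted p = 0.0330). When the same RNA was resequenced, the xe31 minus WT difference of linc-1 changed sign at both hours. It went from -0.513 to 0.123 CPM at 6 h and from 0.274 to -0.138 CPM at 10 h. For linc-34 it went from 0.0015 to -0.0825 CPM and from -0.0816 to 0.0816 CPM. For linc-14 it stayed below 0 at both hours. The late log2 change in the time course was 0.12 for linc-29, with a 95% interval from -0.18 to 0.42. For linc-83 it was 0.04 with an interval from -0.48 to 0.55. These intervals bound a late effect on linc-29 more tightly than on linc-83, the gene with the fewest counts.

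In the early window 7.69% of genes were called, 1142 higher and 174 lower, but only 1.87% of the genes of like level, and 0 of the 6 linc genes. In the middle window 15.5% were called, 7.94% at like level, and again 0 linc genes, with linc-34 the lowest in p at -0.50 ± 0.21 (edgeR, BH-adjusted p = 0.138). Against WT 1 h earlier, linc-34 was called at -0.82 (adjusted p = 0.0308). In each of these windows 1 linc gene had an unadjusted p under 0.05 by edgeR, and DESeq2 called 0. The late effect minus the early effect was called for 19% of genes and 0 linc genes, none of them at an unadjusted p under 0.05, and for none by DESeq2. That contrast for linc-61 was 0.37 with a 95% interval from -0.35 to 1.09. Of 32 genes listed for 3' end formation and RNA decay, all tested, 7 were called higher and 10 lower in late xe31. Their median log2 change was -0.05. The list includes xrn-2 itself and xrn-1, both among those called higher.

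The deeper libraries gave several times the counts per gene. CPM from the same RNA differed for some genes between the sequencing rounds. At 10 h linc-14 went from 1.11 to 2.02 CPM in WT and from 0.840 to 1.95 in xe31. For linc-34 the values were 0.442 and 0.683 CPM in WT, and 0.360 and 0.765 in xe31. In the deeper libraries linc-61 had 288 and 214 counts in WT at 6 h and 10 h and 174 and 170 in xe31. That is 1.18 and 0.845 CPM against 0.715 and 0.711 CPM. Xe31 was lower at both hours and the groups did not overlap. With 1 residual degree of freedom the log2 change was -0.58 ± 0.30 (edgeR, BH-adjusted p = 0.532), close in size to that of the time course, from which it takes its RNA. This fit called 0.00% of 18213 genes (2099 at an unadjusted p under 0.05, 2570 by DESeq2) and 0 linc genes (0 at an unadjusted p under 0.05, 0 by DESeq2). The other 5 linc genes had log2 changes from -0.21 for linc-14 to 0.11 for linc-29.

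In the catalytic-dead strain linc-83 stood apart from WT by the most. It had 14 and 4 counts in WT at 6 h and 10 h, or 0.188 and 0.0788 CPM, and 27 and 24 counts in the mutant, or 0.479 and 0.484 CPM. Both mutant libraries were above both WT libraries. The log2 change was 1.60 ± 0.75 (3.03-fold, edgeR, BH-adjusted p = 0.235), with a 95% interval from -0.38 to 3.58, and it was not called. For linc-29 the WT libraries had 2.31 and 2.09 CPM and the mutant libraries 1.35 and 1.83 CPM, lower at both hours, a log2 change of -0.80 ± 0.65 (edgeR, BH-adjusted p = 0.449). For linc-1, 0.982 and 1.12 CPM in WT were set against 0.870 and 0.564 CPM, a change of -0.89 ± 0.71 (edgeR, BH-adjusted p = 0.442). By CPM the mutant was higher at both hours for linc-14, linc-34, linc-61 and linc-83, and lower at both for linc-1 and linc-29. With so few hours such agreement carries little weight, and the share of all genes that agreed was not counted.

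These directions by CPM were not matched by calls. The fit called 1.16% of 17212 genes and 0 of 6 linc genes, with 0 at an unadjusted p under 0.05 and 0 called by DESeq2. After TMM scaling the fitted change of linc-14 was -0.04, of opposite sign to its CPM. The catalytic-dead effect minus the resequenced xe31 effect, each against its own WT, was called for 0.0634% of 18925 genes and 0 linc genes, again with 0 at an unadjusted p under 0.05 and 0 by DESeq2. Its largest value among them was 1.66 for linc-83, with a 95% interval from -0.34 to 3.65.

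**Figure D2:**
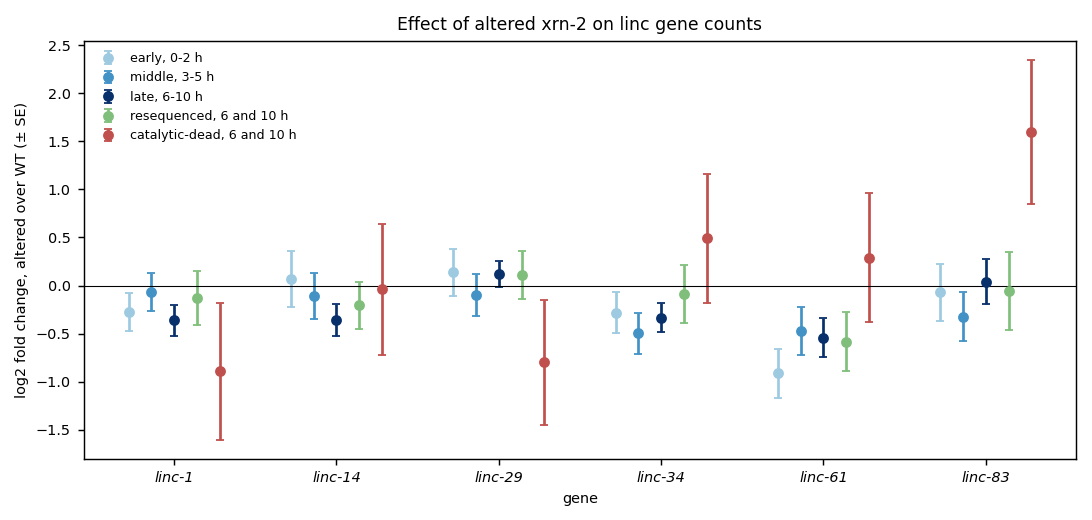
Log2 fold change of altered xrn-2 over WT with its standard error (vertical axis) for 6 linc genes, in the early, middle and late windows of the time course, in the resequenced libraries and in the catalytic-dead experiment. The time-course values of linc-61 are all below 0, at -0.91 early, -0.47 in the middle window and -0.54 late, and the catalytic-dead errors are the widest.

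In the polyA-selected RNAi pair all 6 linc genes with counts were higher in the xrn-2 RNAi library than in the mock library, by CPM. The median gene with at least 100 counts in the pair was higher too, at a log2 ratio of 0.37. With 1 library per treatment there is no replicate check and no test, and the exact binomial 95% intervals cover counting error only. Counts went from 17 to 98 for linc-14 and from 34 to 137 for linc-29, or from 0.466 to 2.20 CPM and from 0.932 to 3.07 CPM. On the log2 scale, with a pseudocount of 1, these are 2.17 (4.50-fold, interval 1.48 to 3.07) and 1.69 (3.22-fold, interval 1.17 to 2.31). The third gene with at least 100 counts in the pair, linc-61, went from 41 to 59 counts, a log2 ratio of 0.22 whose interval, from -0.37 to 0.85, spans 0. Of all genes with as many counts, 43% had a lower ratio than linc-61.

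The library as a whole leaned upward. Past 2-fold higher were 2 of these 3 linc genes, next to 25.4% of 13970 genes with as many counts, and the median log2 ratio of all those genes was 0.37. With TMM scaling, chosen after seeing the data, that median was 0.03, linc-14 stood at 1.83 and linc-29 at 1.35, and linc-61 turned to -0.12. Below the minimum of 100 counts, linc-83 went from 5 to 43, linc-34 from 13 to 56 and linc-1 from 27 to 66 counts. Their log2 ratios were 2.58 (interval 1.48 to 4.51), 1.74 (0.93 to 2.81) and 0.97 (0.33 to 1.70). The cuticle, molt and intestinal markers given above separate the same pair of libraries, and their part in these ratios was not tested.

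In the rRNA-depleted libraries the direction varied between genes, and the difference between library kinds was not tested. Counts of linc-14 were 18 in mock and 12 and 25 in the xrn-2 RNAi libraries, and those of linc-29 were 27 in mock and 20 and 38. For both genes the mock library lay between the treated ones. For linc-61 the mock had 40 counts (1.78 CPM) and the treated libraries 17 and 29 (0.784 and 1.22 CPM), both lower. Its log2 change was -1.13 ± 0.66 (edgeR, BH-adjusted p = 0.578), that of linc-14 -0.29 ± 0.82 and that of linc-29 -0.23 ± 0.72. The 95% intervals, -2.43 to 1.85 for linc-14 and -2.09 to 1.63 for linc-29, end below the polyA log2 ratios taken by library totals and above those taken with TMM scaling, the scaling this fit uses. The fit, with a single mock, called 0.00% of 15917 genes (2335 at an unadjusted p under 0.05, 1080 by DESeq2) and 0 of the 3 linc genes tested (0 at an unadjusted p under 0.05, 0 by DESeq2).

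The remaining linc genes were too rare there to test. Counts in mock and in the treated libraries were 8, 4 and 5 for linc-1, 4, 8 and 10 for linc-34, and 0, 3 and 10 for linc-83. The treated libraries were lower for linc-1 and higher for linc-34 and linc-83, at counts where single reads weigh heavily.

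Set against each other with treatment as a term, polyA-selected and rRNA-depleted libraries differed for 9.92% of 15796 genes and 5.35% of 785 genes of like level. Of the 4 linc genes tested, 0 were called by edgeR and 0 by DESeq2, and 1 had an unadjusted p under 0.05. That gene was linc-1, at 0.741 and 1.48 CPM in the polyA libraries and 0.357, 0.184 and 0.210 CPM in the rRNA-depleted ones. The groups did not overlap, and the log2 difference was 1.65 ± 0.59 (3.13-fold higher with polyA selection, edgeR, BH-adjusted p = 0.121). The values were 0.12 for linc-14, 0.14 for linc-29 and -0.53 for linc-61, each with a 95% interval that spans 0. Kit, experiment and polyA selection cannot be told apart in this contrast.

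**Figure D3:**
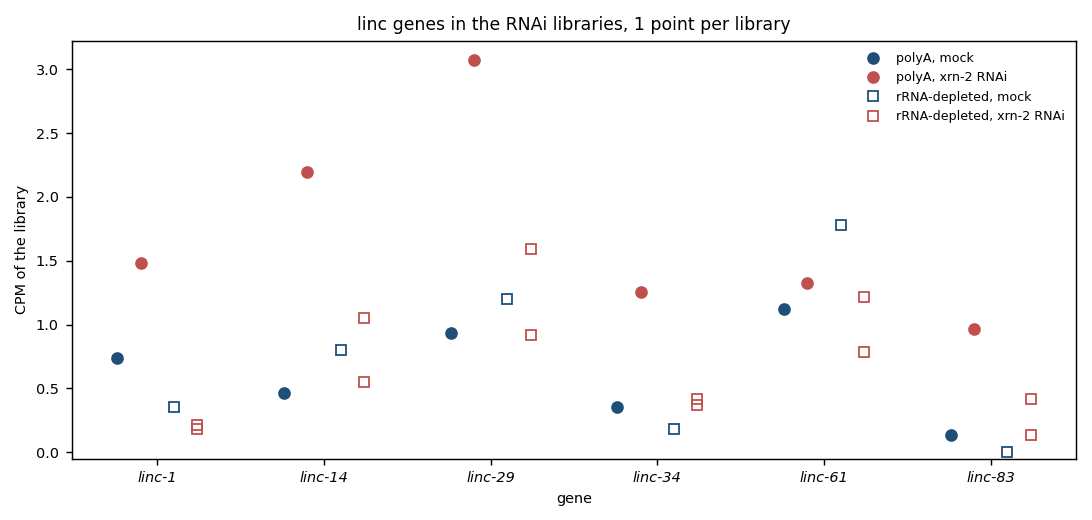
CPM of each RNAi library (vertical axis) for 6 linc genes, as filled circles for polyA-selected and open squares for rRNA-depleted libraries, blue for mock and red for xrn-2 RNAi. The red circle is above the blue circle for every gene, in a pair whose median gene was also higher (log2 ratio 0.37). The red squares of linc-14 and linc-29 lie on both sides of the blue square.

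The windows beside the genes set linc-1 and linc-29 apart from the other linc genes. Reads were also counted by the authors in windows on either side of the gene, called downstream and upstream, of a length and strand not given in the sources used here. In the time course the median gene had 0.00512 downstream counts per gene count, and 2.34% of 15327 genes had more counts downstream than inside. Over the late WT libraries linc-29 had 412 gene counts and 481 downstream counts, and linc-1 had 290 and 225. By contrast linc-14 had 0 downstream counts beside 244 gene counts, linc-34 had 0 beside 161, linc-61 had 13 beside 231, and linc-83 had 3 beside 58.

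The downstream window of linc-29 moved with the gene itself. In WT its downstream counts were 21, 15 and 31 at 0, 1 and 2 h, and 82, 86, 94, 111 and 108 from 6 to 10 h. All late hours were above all early hours, as inside the gene. In the polyA RNAi pair downstream counts went from 24 to 98, next to 34 and 137 inside, so the ratio was 0.706 in mock and 0.715 in the xrn-2 RNAi library.

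Upstream rather than downstream counts accompanied linc-83 and linc-34. In the late WT libraries linc-34 had 39 upstream counts beside 161 gene counts, and linc-83 had 23 beside 58. In the polyA RNAi pair the upstream window of linc-83 went from 0 to 43 counts while the gene went from 5 to 43. Of its neighbours, elt-4 went from 20 to 97 counts in the same pair and C39B10.1 from 92 to 149. Their part in this window was not tested.

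Readthrough, the change of downstream counts relative to gene counts, rose across the transcriptome in late xe31, with a median log2 change of 1.07. It could be tested for 3 linc genes. None of the 3 was called, against 50.5% of 11263 genes and 28.2% of 616 genes of like level, and 1 had an unadjusted p under 0.05 by edgeR (DESeq2 was not run on this ratio). That was linc-1, with downstream counts of 51, 60, 36, 40 and 38 in WT and 45, 55, 65, 62 and 53 in xe31 from 6 to 10 h. The counts overlap between the strains, while gene counts totalled 290 and 235. The log2 change of the ratio was 0.60 ± 0.26 (edgeR, BH-adjusted p = 0.0562), and it passed without 7 h (0.74, adjusted p = 0.0399), without 10 h (0.72, adjusted p = 0.0453) and among genes with at least 50 downstream counts (adjusted p = 0.0485). With upstream counts as the reference the value was 2.38, but that reference itself fell in late xe31, so it is no measure of more reads downstream. In other experiments the ratio to gene counts was not tested. For linc-1 it was 3.985 in WT and 5.704 in xe31 after resequencing, and 0.977 in WT and 2.16 in the catalytic-dead strain. It was 0.741 in the polyA mock and 0.530 in its RNAi library, and 13 and 21.4 in the rRNA-depleted ones on few gene counts. For linc-61 it was 0.0658 in the WT of the catalytic-dead experiment and 0.273 in the mutant. In late xe31 the change was -0.30 ± 0.25 for linc-29 (95% interval -0.81 to 0.21) and 0.75 ± 0.68 for linc-61, on 29 late downstream counts in all. The interval of linc-29 lies below the median of all genes. Its late WT ratio was already 1.17, against 0.00512 for the median gene over the time course, so these changes start from unlike levels. Of the genes for 3' end formation and decay, 15 of 23 tested were called higher in this ratio.

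The upstream window of linc-1 was the one linc window called in late xe31. Its upstream counts were 8, 10, 5, 6 and 3 in WT from 6 to 10 h and 4, 0, 1, 2 and 0 in xe31. Xe31 was lower at every late hour, and the groups overlapped only in that WT at 10 h had 1 count fewer than xe31 at 6 h. The log2 change was -2.17 ± 0.59 (0.222-fold, edgeR, BH-adjusted p = 0.00182), on totals of 32 and 7 counts. The resequenced libraries, from the same RNA, had 33 and 33 upstream counts in WT and 17 and 9 in xe31. In the other experiments, where this window was not tested, upstream counts were 11 and 3 in WT and 5 and 5 in the catalytic-dead strain, and 4 in the polyA mock and 9 in its xrn-2 RNAi library. Of 4346 genes tested 59.9% were called, 2427 of them higher and 177 lower, so the direction of linc-1 was that of the smaller group. For linc-34 and linc-83 the change was -0.12 ± 0.41 and -0.13 ± 0.51, neither called (edgeR, BH-adjusted p = 0.817 and 0.850). In the catalytic-dead experiment, where this window was not tested, linc-34 had 13 and 10 upstream counts in WT and 47 and 31 in the mutant, higher at both hours. The upstream window of linc-29 held 0 counts in every late WT library and 1, 1, 5, 4 and 2 in the xe31 libraries, too few for the filter on low counts. It held 3 and 3 counts in WT and 6 and 18 in xe31 after resequencing, and 0 and 1 in WT and 11 and 14 in the catalytic-dead strain, so xe31 was higher in both reads of its RNA and the catalytic-dead strain was higher in its own experiment. Tested without the filter, its late xe31 difference had an adjusted p of 0.0336 (edgeR, BH), in a fit that called 3578 of 13998 genes. The neighbours of linc-1 moved in their own downstream ratio in the same hours, by 4.48 ± 0.49 on the log2 scale for dkf-1 and by 3.34 ± 0.63 for rpl-31, and their part in the windows of linc-1 was not tested.

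Downstream of linc-1 the tables disagree in a way that few genes share. At 6 h and 10 h it had 51 and 38 downstream counts in WT and 45 and 53 in xe31 in the time course, and 999 and 1181 in WT and 1605 and 1418 in xe31 after resequencing of the same RNA. The gain was 19.6-fold and 31.1-fold in WT and 35.7-fold and 26.8-fold in xe31, where the median gene with at least 30 downstream counts gained 5.19-fold to 5.71-fold. Of 1664, 1461, 2502 and 3939 such genes, 4, 3, 1 and 6, linc-1 included, gained as much. Inside the gene the gain was ordinary, from 3.73-fold to 6.83-fold, and downstream of linc-29 it was 4.43-fold to 6.33-fold. The rRNA-depleted libraries likewise had 104 downstream counts in mock and 96 and 97 in the treated libraries, beside 8, 4 and 5 counts inside linc-1. The polyA pair had 20 and 35 downstream beside 27 and 66 inside.

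**Figure D4:**
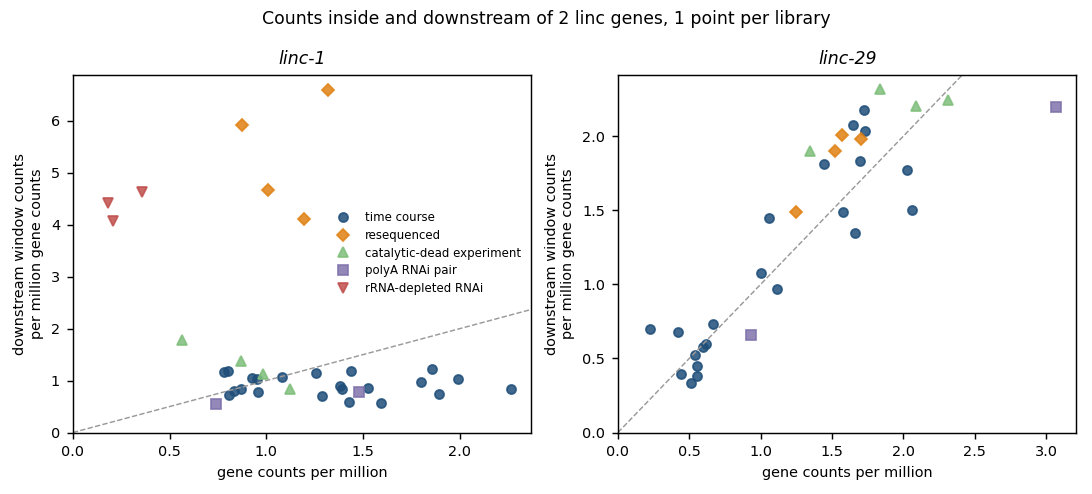
Downstream window counts (vertical axis) against gene counts (horizontal axis), both scaled by the library's gene counts (CPM), for linc-1 and linc-29, with 1 point per library, symbols by experiment and a dashed line where both are equal. For linc-1 the resequenced and rRNA-depleted libraries lie far above the line and the time course near or below it, while for linc-29 the libraries follow the line.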

How the data were processed

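Read counts were analysed for 35 of 51 samples, and the 16 chromatin immunoprecipitation and input samples come without tables and were not analysed here. Per the file headers, the deposited values are whole-number read counts for genes and for their downstream and upstream windows, and the submitters' processing notes name build ce10. The sources used here do not give the aligner, the counter, the strand setting or the size of the windows, and reads of overlapping or antisense genes could not be separated. The RNAi tables also hold 4 gene and 8 window columns of another series, not used here. Columns were assigned by their names. The window tables list 6 of the linc genes, and the rRNA-depleted one lists only linc-1. Neighbours are the nearest protein-coding genes on either side in RefSeq (WBcel235), by order only.

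Genes were tested with edgeR 4.0.16 in R 4.3.3 (quasi-likelihood, TMM, filterByExpr at a minimum count of 10, BH threshold 0.05). The time course had hour as a block for strain effects in the early (0 to 2 h), middle (3 to 5 h) and late (6 to 10 h) windows, and strain-by-window means for the change over time. Readthrough was tested where downstream counts summed to 20 or more and gene counts averaged 10 or more, in 1 model over both kinds of counts. Standard errors come from the test statistic, widened where edgeR's Poisson bound raised the p-value. Intervals are 95%. Alternatives used DESeq2 1.42.0, limma 3.58.1, RLE scaling, no filter, shifted WT hours and left-out libraries. The scripts were tested on simulated data. All genes with a linc- number were taken and all 7 are named; the members, lists and tests were chosen with earlier results of these data known. No antisense RNA gene (symbol anr-) was found among the tables' genes (0).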

Additional observations from a re-analysis of the deposited data

Results flagged for a closer look

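Over the 5 late hours of each strain, 12 sets of CPM values were checked for a library far from the others. Chance marks about 1 in 20, a rate that holds only for hours without a trend. The WT library at 6 h stood apart for linc-29, at 1.06 CPM below the other late hours and near the 1.12 CPM of 5 h.

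Each of 3 genes moved one way at both hours in the catalytic-dead strain and the other way at both hours in resequenced xe31, by CPM. The share of all genes that did so was not counted. In the fits linc-14 was below 0 in both, at -0.04 and -0.21. The tested differences between the catalytic-dead and xe31 effects did not pass (edgeR with BH adjustment). They were 0.18 for linc-14 (adjusted p = 0.876), -0.89 for linc-29 (adjusted p = 0.362) and 0.89 for linc-61 (adjusted p = 0.428).

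The polyA xrn-2 RNAi library was above its mock for linc-1, by 0.97 on the log2 scale, and for linc-61, by 0.22, while both rRNA-depleted xrn-2 RNAi libraries were below theirs. The rRNA-depleted log2 ratios were -0.67 and -0.80 for linc-1, on 13 and 12 counts, and -0.54 and -1.14 for linc-61. These differences between library kinds were not tested.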

How the results depend on the processing

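Of the alternatives for single linc genes, 436 estimates kept direction and side of the threshold, 16 newly passed, 2 no longer passed and 13 changed sign, 0 of these with either value called. Counts of linc genes called stayed within 1.5 times in 260 cases and moved in 17. Counts lower in xe31 went from 0 to 1 in the early window against WT 1 h later, in the middle window against WT 1 h earlier, and in the late window against WT 1 h earlier (linc-1) and 1 h later (linc-61). Readthrough went from 0 to 1 higher with at least 50 downstream counts, and with upstream counts as reference, a reference that itself fell for linc-1. The upstream window went from 0 to 1 higher with no filter on low counts (linc-29). Leaving out single hours gave 0 to 1 lower in the early and in the late window, 1 to 2 higher and 1 to 2 lower in the xe31 course, and 0 to 1 higher in readthrough.

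In late xe31, linc-29 turned to -0.0493 against WT 1 h later, and linc-83 to -0.0422 with no hour block and -0.37 against WT 1 h earlier, with -0.0859 to 0.32 without single hours. The upstream window ranged from -0.34 to 0.19 for linc-34 and from -0.27 to 0.0399 for linc-83 without single hours. Without either rRNA-depleted xrn-2 RNAi library, the library-kind difference ranged from -0.22 to 0.18 for linc-14 and from -0.13 to 0.24 for linc-29, and the rRNA-depleted RNAi value from -0.50 to 0.37 for linc-14 and from -0.37 to 0.39 for linc-29. The cause of these changes was not tested.

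No paired analysis was possible because the groups that share replicate numbers in the labels have no tables here, and the RNAi groups with tables share fewer than 2 numbers; the hour, not a replicate number, matched the strains in the time-course, resequenced and catalytic-dead fits. Depth limits most of these values: 5 to 43 counts decide linc-83 and 13 to 56 decide linc-34 in the polyA pair, and a single hour can carry a linc gene across the threshold.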
